A study of Mus musculus with 6 samples.

Results

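RNA of CD45-negative EpCAM+ thymic epithelial cells (TECs) was hybridized to 6 mouse whole-transcriptome arrays, and 10 genes that mark cortical TECs or feed T cell development were followed among 30176 genes with a measured value. The genes were chosen by name: *Foxn1*, *Psmb11*, *Prss16*, *Dll4*, *Ccl25*, *Cxcl12*, *Ly75*, *Enpep*, *Il7* and *Kitl*. Each had exactly 1 probe set that carried its symbol alone. Of the arrays, 3 were labelled KO, from mice with loxP sites in both *Socs3* alleles and a CreER transgene driven by the β-actin promoter (Δ*socs3*), and 3 were labelled WT, from mice with the same loxP alleles and no transgene named. All mice had been given tamoxifen (Tm) and TECs were taken 7 days after Tm. The β-actin promoter drives Cre in nearly all cells, so the deletion is not restricted to TECs. The age of these mice is not given in the sources used here. The design text names 3 mice per label, and whether a sample pools animals is not stated elsewhere. The p-values set the difference between the labels against the spread among arrays of the same label.

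Cortical TECs support the commitment, survival and positive selection of thymocytes. The transcription factor FOXN1 is needed for TEC differentiation and drives genes for the Notch ligand DLL4, for chemokines that draw in progenitors and for the cortical peptide-processing enzymes. IL-7 and KIT ligand are growth factors of early thymocytes. SOCS3 is an inhibitor of cytokine receptors that signal through JAK kinases and STAT3, such as those of the IL-6 family.

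Windows upstream of the transcription start were read for the genes because several of them are FOXN1 targets and because SOCS3 acts on STAT signaling. The RefSeq table of build GRCm38.p6 held windows of 300 bases (250 before to 50 after the start) for 8 of the 10 genes, and *Il7* and *Prss16* were not matched. The core motif of FOXN1, GACGC, was searched on both strands. It occurred in 27.2% of all 32851 windows (29.6% of 27025 genes) and in those of 5 of the 8 genes, *Psmb11*, *Ccl25*, *Cxcl12*, *Kitl* and *Enpep*. The motif of STAT factors, TTCNNNGAA, reads the same on both strands and occurred in 8.3% of windows and in 1 of the 8 genes, *Enpep*. The windows of *Foxn1*, *Dll4* and *Ly75* held neither run of letters. The matches are descriptions of sequence and were not tested as binding sites. For *Psmb11*, which had the second largest difference among the 10 genes, all 250 bases before the start are shown with GCGTC, the motif read on the opposite strand, in capitals (chr14:54625060-54625309, plus strand). The motif ended 235 and 58 bases before the start.
*Psmb11*: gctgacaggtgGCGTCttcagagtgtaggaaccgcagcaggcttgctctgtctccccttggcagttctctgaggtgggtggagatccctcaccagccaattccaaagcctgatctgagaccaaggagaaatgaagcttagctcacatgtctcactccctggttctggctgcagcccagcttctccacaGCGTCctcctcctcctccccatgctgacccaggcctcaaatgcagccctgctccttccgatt
For the other genes the motif is shown in capitals with up to 20 bases on each side, cut off at the base before the start. The window of *Ccl25* lies at chr8:4325134-4325178 (plus strand), that of *Cxcl12* at chr6:117168453-117168497 (plus strand), that of *Kitl* at chr10:100015618-100015662 (plus strand) and those of *Enpep* at chr3:129332750-129332777 for GACGC and chr3:129332862-129332910 for TTCNNNGAA (minus strand).
*Ccl25*: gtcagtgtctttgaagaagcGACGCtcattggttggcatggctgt
*Cxcl12*: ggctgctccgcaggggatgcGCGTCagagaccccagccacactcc
*Kitl*: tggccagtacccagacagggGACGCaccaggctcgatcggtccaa
*Enpep*, GACGC: agaaggggcaggcctggggaGACGCtgt
*Enpep*, TTCNNNGAA: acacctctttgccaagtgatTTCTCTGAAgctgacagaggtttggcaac
The motif ended 52 bases before the start of *Ccl25*, 58 bases before that of *Cxcl12*, where it lies on the opposite strand, 179 bases before that of *Kitl* and 4 bases before that of *Enpep*.

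Some facts of the arrays bear on all results below. *Socs3*, the targeted gene, had log2 signals of 8.54, 8.14 and 8.38 on the arrays labelled Δ*socs3*, against 8.0, 8.26 and 7.88 on the arrays labelled WT, a difference of 0.32 (SE 0.16, limma adjusted p = 0.284). It passed as higher under quantile normalization (0.54, adjusted p = 0.0375) and without replicate 2 of both labels (0.53, adjusted p = 0.0415). All its signals lay below 10.22, the 95th percentile of 5222 negative control probe sets, and where its probes lie relative to the deleted part is not stated, so the gene is a weak check of the labels. Differences below are Δ*socs3*-labelled minus WT-labelled arrays, by the deposited labels. For every measured gene on the study's supplementary list of changed genes, the sign opposes the one given there. That list had 45 measured genes and leaves out genes named only in the study's text. Of these, *Aire* and *Cd80* also had the opposite sign (1.76 and 1.30). *Ctsl*, which the text gives as higher in WT, had the same sign as there (-0.95). The genotype to which a direction belongs is therefore not settled here, and the groups are called by their labels. Replicate 2 of the Δ*socs3* label was unlike the rest, with Pearson correlations across genes of 0.962 to 0.98 with the other arrays, a narrower spread over genes (SD 2.33, against 2.61 to 2.67) and weaker spikes (poly-A RNAs added before labelling at 6.66, against 8.20 to 8.49). The array labelled WT replicate 2 also lay at one end for many genes. Among the 4446 genes whose mean signal exceeded 10.22, the array labelled Δ*socs3* replicate 2 was the lowest in 77.9% and the array labelled WT replicate 2 the highest in 48.8%. The part of these arrays in the results was not tested beyond the values without them.

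All 10 genes had a lower mean signal on the arrays labelled Δ*socs3* (*Ccl25* not under quantile normalization), and 1 of them, *Il7*, passed the test across all genes (limma, Benjamini-Hochberg adjusted p under 0.05). None was called higher. Among all genes, 1.18% were called lower and 0.517% higher. The differences of the 10 genes ran from -1.85 to -0.23 with a median of -0.88, beside a median of -0.05 over all genes and of -0.34 over the 4446 genes above 10.22. For 7 of these 10 genes the groups did not overlap, all of them lower on the arrays labelled Δ*socs3*. Such a separation occurred in 26.4% of all genes. Of the 5 of the 10 genes that had a mean above 10.22, it was seen in 4, beside 47.6% of all genes above that level. For every one of the 10 genes the lowest value was on the array labelled Δ*socs3* replicate 2 and the highest on the array labelled WT replicate 2. Without both of these arrays, all 10 differences were still negative, with a median of -0.34 beside -0.07 over all genes and -0.14 over the genes above 10.22. *Il7*, *Cxcl12* and *Psmb11* were then called, and 5.23% of all genes were called lower. For 3 arrays against 3, an exact permutation test of a single gene cannot give a two-sided p below 0.1. In bulk RNA, fewer cells of a type and less RNA per cell cannot be told apart.

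**Figure D1:**
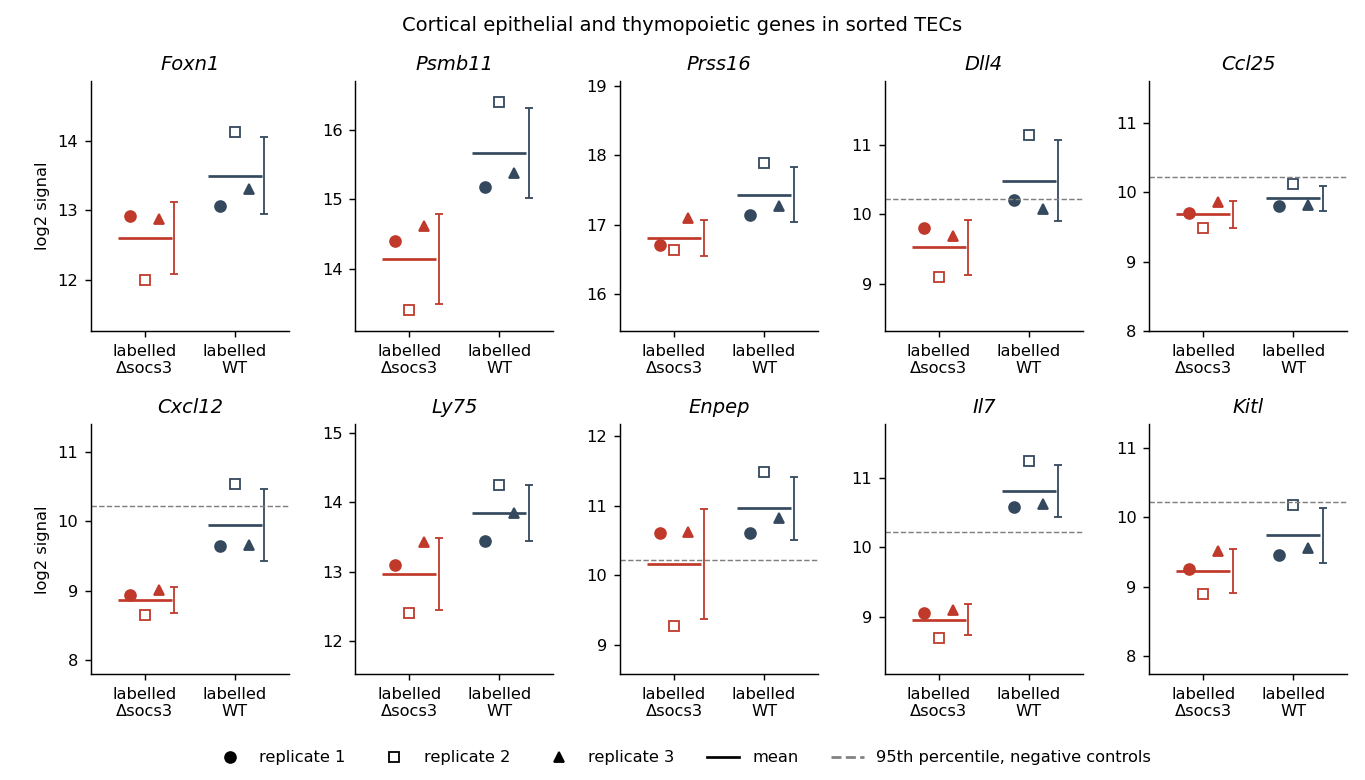
Log2 signal (vertical axis, each panel spans the same number of log2 units) of the 10 genes on each array, with arrays labelled Δ*socs3* left of arrays labelled WT. Points are single arrays, horizontal lines means, bars SD (n = 3), and the dashed line marks 10.22, the 95th percentile of negative controls. *Il7* lies below that line on all arrays labelled Δ*socs3* and above it on all arrays labelled WT.

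*Foxn1*, the transcription factor that directs TEC development, had log2 signals of 12.92, 12.00 and 12.88 on the arrays labelled Δ*socs3*, against 13.06, 14.12 and 13.30 on the arrays labelled WT. The groups did not overlap, but the gap between the nearest arrays was small beside the spread within each group. The difference was -0.90 (SE 0.35, 95% interval -1.71 to -0.09, limma adjusted p = 0.179). Without replicate 2 of both labels it was -0.29 (adjusted p = 0.176), and over all alternatives its adjusted p ran from 0.102 to 0.491.

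*Psmb11* encodes β5t, the catalytic subunit that defines the thymoproteasome of cortical TECs and is required for the normal selection of CD8 T cells. Its signals were 14.40, 13.40 and 14.62 on the arrays labelled Δ*socs3*, against 15.18, 16.40 and 15.38 on the arrays labelled WT. All arrays with the first label lay lower. The difference was -1.52 (SE 0.41, 95% interval -2.48 to -0.55), the largest after *Il7*, and did not pass the test (limma adjusted p = 0.0985). Without replicate 2 of both labels it was -0.78 and passed (adjusted p = 0.0272, over all alternatives 0.0272 to 0.322). *Prss16*, a serine protease of cortical TECs that takes part in the selection of CD4 T cells, had 16.70, 16.64 and 17.10 on the arrays labelled Δ*socs3*, against 17.14, 17.89 and 17.26 on the arrays labelled WT. The groups nearly touched. The difference was -0.62 (SE 0.23, 95% interval -1.16 to -0.08, adjusted p = 0.17), and -0.39 without the array labelled WT replicate 2 or -0.31 without replicate 2 of both labels.

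Next came the surface proteins of cortical TECs. *Ly75*, which encodes the endocytic receptor CD205 found on cortical TECs and dendritic cells, had 13.10, 12.40 and 13.42 on the arrays labelled Δ*socs3*, against 13.44, 14.24 and 13.84 on the arrays labelled WT. The difference was -0.86 (SE 0.30, 95% interval -1.57 to -0.15, limma adjusted p = 0.153). *Enpep* encodes the aminopeptidase Ly51, the antigen by which cortical TECs are gated in flow cytometry. Its signals were 10.60, 9.26 and 10.62 on the arrays labelled Δ*socs3*, against 10.60, 11.48 and 10.82 on the arrays labelled WT. The groups overlapped, and the low value came from the array labelled Δ*socs3* replicate 2. The difference of -0.80 (SE 0.41, 95% interval -1.76 to 0.15, adjusted p = 0.277) was -0.35 without that array and -0.10 without replicate 2 of both labels.

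*Dll4*, the ligand that engages NOTCH1 on incoming progenitors and commits them to the T lineage, had signals of 9.80, 9.09 and 9.68 on the arrays labelled Δ*socs3*, against 10.20, 11.14 and 10.07 on the arrays labelled WT. The groups did not overlap. The difference was -0.95 (SE 0.32, 95% interval -1.70 to -0.20, limma adjusted p = 0.144), and -0.40 without replicate 2 of both labels (adjusted p = 0.0738, over all alternatives 0.0738 to 0.392). Only 1 of the 6 arrays, labelled WT, gave *Dll4* a signal above 10.22, so the size of its difference is less certain.

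The chemokines were set apart from each other. *Cxcl12*, which acts through CXCR4 on early thymocytes, had 8.94, 8.65 and 9.01 on the arrays labelled Δ*socs3*, against 9.64, 10.54 and 9.66 on the arrays labelled WT. All arrays with the first label lay lower, and they lay close together. The difference was -1.08 (SE 0.26, 95% interval -1.69 to -0.47, limma adjusted p = 0.0803), and -0.68 without replicate 2 of both labels, where it passed (adjusted p = 0.0157, over all alternatives 0.0157 to 0.225). *Ccl25*, the ligand of CCR9, had 9.70, 9.48 and 9.86 on the arrays labelled Δ*socs3*, against 9.80, 10.12 and 9.82 on the arrays labelled WT. These groups overlapped. The difference of *Ccl25* was the smallest of the 10, at -0.23 (SE 0.16, 95% interval -0.60 to 0.14, adjusted p = 0.418), and turned to 0.12 under quantile normalization. *Ccl25* exceeded 10.22 on none of the arrays and *Cxcl12* on 1, labelled WT.

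*Il7*, the cytokine that keeps early thymocytes alive and dividing, was the only gene of the 10 that passed the test in the main comparison. Its log2 signals were 9.06, 8.70 and 9.10 on the arrays labelled Δ*socs3*, against 10.58, 11.24 and 10.62 on the arrays labelled WT. The groups were far apart beside the spread within them (SD 0.22 and 0.37). *Il7* was lower by a difference of -1.85 (SE 0.21, 95% interval -2.36 to -1.34, limma adjusted p = 0.0266), a 3.61-fold lower signal. The signals on the arrays labelled Δ*socs3* all lay below 10.22, so the fold rests on a signal that negative controls can also give. With these signals set to 10.22, the mean of *Il7* was 1.5-fold lower. That is an estimate without an interval, and the array labelled WT replicate 2 (11.24) raises it. *Il7* passed without the array labelled Δ*socs3* replicate 2 (-1.72, adjusted p = 0.00616), and without replicate 2 of both labels (-1.51, adjusted p = 0.00654). Leaving out any other single array kept the difference between -1.97 and -1.64 and raised the adjusted p to between 0.0775 and 0.114, with 0 to 4 genes called in all. Over all alternatives the adjusted p of *Il7* ran from 0.00111 to 0.142. *Kitl*, which encodes stem cell factor, the ligand of KIT, did not share this separation. It had 9.26, 8.90 and 9.52 on the arrays labelled Δ*socs3*, against 9.46, 10.18 and 9.56 on the arrays labelled WT. The groups overlapped, the difference was -0.51 (SE 0.24, 95% interval -1.08 to 0.07, adjusted p = 0.256) and no array reached 10.22. It was -0.28 without the array labelled WT replicate 2, -0.16 under quantile normalization and -0.11 without replicate 2 of both labels.

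**Figure D2:**
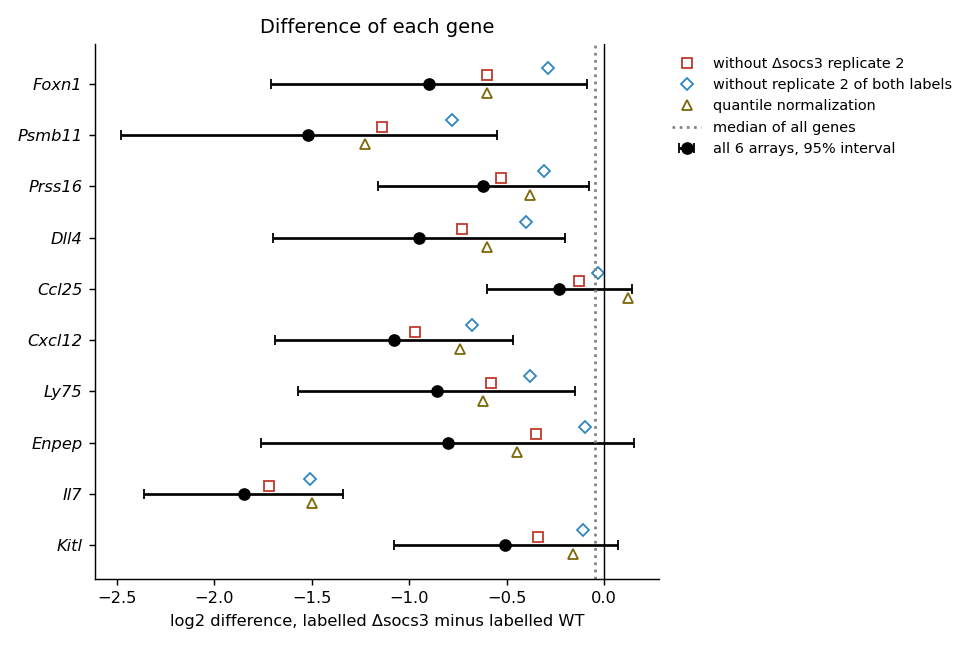
Log2 difference of each gene (horizontal axis, Δ*socs3*-labelled minus WT-labelled arrays) with its 95% interval from limma, beside the differences without the array labelled Δ*socs3* replicate 2, without replicate 2 of both labels and after quantile normalization. The interval of *Il7*, from -2.36 to -1.34, lies farthest from 0, and *Ccl25* is the gene whose sign turns, to 0.12, under quantile normalization.

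Since all 10 genes shared their lowest and their highest array, each gene was also set against the mean of the other 9 genes on the same array and centred on the arrays labelled WT. These relative values have a sum near 0 on each array, so genes that lie lower leave others higher, and they are given as a description. *Il7* stood at -1.07, -0.81 and -1.18 relative log2 units on the arrays labelled Δ*socs3*, against 0.09, -0.09 and 0.00 on the arrays labelled WT. It thus stayed apart from the other genes by a like amount on all 3 arrays labelled Δ*socs3*. *Psmb11* also stayed lower, at -0.54, -0.98 and -0.43 on the arrays labelled Δ*socs3*, against -0.17, 0.26 and -0.09 on the arrays labelled WT. Relative values of *Ccl25*, *Kitl* and *Prss16* were higher on every array labelled Δ*socs3* than on any labelled WT, by 0.78, 0.47 and 0.35. *Foxn1*, *Dll4*, *Cxcl12*, *Ly75* and *Enpep* overlapped between the labels on this scale, with mean differences between -0.16 (*Cxcl12*) and 0.14 (*Enpep*). *Enpep* was uneven among the arrays labelled Δ*socs3*, at 0.46, -0.37 and 0.34, against -0.05, 0.00 and 0.05 on the arrays labelled WT.

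**Figure D3:**
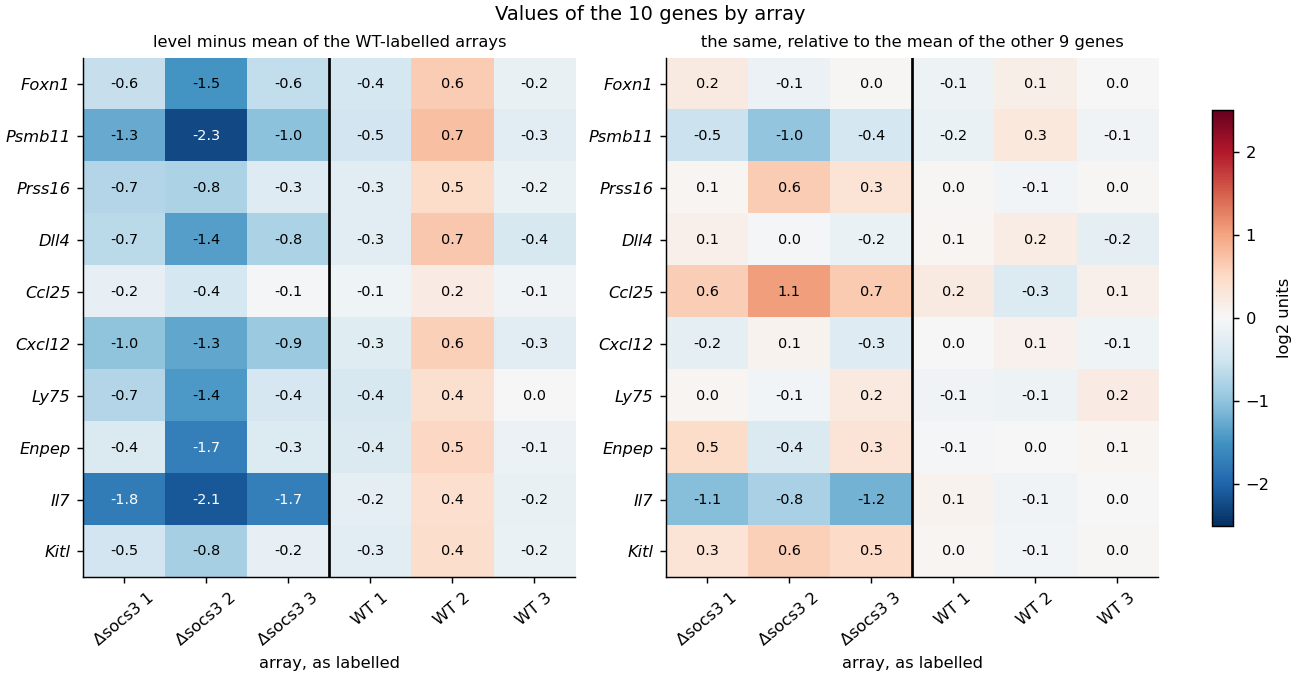
Values of the 10 genes (rows) on the 6 arrays (columns, Δ*socs3* left of WT), in log2 units. The left panel gives the level minus the mean of the arrays labelled WT, and the right panel gives the same relative to the mean of the other 9 genes, where *Il7* (-1.07, -0.81 and -1.18) and *Psmb11* remain low on the arrays labelled Δ*socs3*.

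Of the 4446 genes above 10.22 compared with it, the profile of *Il7* over the 6 arrays was most like those of *Nrbp2*, *Il6st* and *Igsf3*, with root mean square differences of 0.05, 0.09 and 0.10 log2 units. *Il6st* encodes gp130, the shared receptor subunit of the IL-6 family. Their differences were -1.86, -1.82 and -1.83, close to that of *Il7* because they were chosen by a like profile. A total of 31 genes came within 0.25 units of *Il7*. For *Foxn1* the nearest profiles were those of *Prrc2a*, *Atn1* and *Gm13991*, at 0.04, 0.06 and 0.08 units, and 225 genes of 4445 came within 0.25 units, so its profile was a common one. All these genes were measured on the same 6 arrays.

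Other genes of cortical TECs had lower signals as well. Of 8 such genes outside the set, 3 were called lower, none higher, and all 8 had a negative difference (*Krt8* not under quantile normalization or without the shift of array medians), with a median of -0.72. Among all genes, 1.18% were called lower and 0.517% higher. Of the 8 genes, 6 had a mean above 10.22, and the median over all genes above that level was -0.34. *Slc46a2*, a thymic stromal transporter, had 13.62, 13.58 and 14.10 on the arrays labelled Δ*socs3*, against 15.74, 16.48 and 15.76 on the arrays labelled WT, a difference of -2.22 (SE 0.25, limma adjusted p = 0.0256). The difference was larger than that of any of the 10 genes. *Ctsl*, cathepsin L, which processes antigens for CD4 T cell selection, was lower by 0.95 (SE 0.17, adjusted p = 0.0482). It had 16.74 to 17.00 on the arrays labelled Δ*socs3*, against 17.60 to 18.11 on those labelled WT. *Pax1*, a transcription factor of the thymic primordium, was lower by 1.59 (SE 0.27, adjusted p = 0.0448), with signals below 10.22 on all arrays labelled Δ*socs3*. *Krt18*, a keratin of simple epithelia, differed by -0.67 and did not pass (adjusted p = 0.0813).

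The same held for genes that act upstream of *Foxn1* or with it in TEC identity. Of 9 measured, 4 were called lower, all 9 had a negative difference (*Wnt5b* not without the shift of array medians) and the median was -0.91. The share called lower among all genes was 1.18%. Of these 9 genes, 5 had a mean above 10.22, a level at which the median over all genes was -0.34. *Fgfr2*, the receptor for FGF7 and FGF10 on TECs, had 10.92, 10.78 and 11.42 on the arrays labelled Δ*socs3*, against 12.60, 13.28 and 12.78 on the arrays labelled WT, a difference of -1.85 (SE 0.24, limma adjusted p = 0.0301). This is the same size as that of *Il7*, at a signal above 10.22 on all arrays. *Trp63*, which encodes the epithelial stem cell factor p63, was lower by 0.91 on the arrays labelled Δ*socs3* (SE 0.16, adjusted p = 0.0448). It did not pass under quantile normalization (-0.56) or with an intensity trend and a robust fit. *Eya1*, a transcriptional coactivator of thymus organogenesis, was lower by 0.75 (SE 0.14, adjusted p = 0.0494) and missed the threshold without the shift of array medians (-0.62). *Pax1* belongs to this list too. *Pax9* and *Wnt4*, picked after their values were seen, differed by -1.59 and -1.47 and missed the threshold (adjusted p = 0.0616 and 0.0686). *Pax9* lay below 10.22 on all arrays labelled Δ*socs3*, and *Wnt4* on all arrays but 1, labelled WT.

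Other ligands and adhesion molecules by which TECs support or attract thymocytes went both ways. Of 14 measured, 3 were called higher and 1 lower, with a median of 0.18, and under quantile normalization 6 and 3. Among all 30176 genes, 0.517% were called higher and 1.18% lower, and under quantile normalization 1146 and 1052 genes. *Dll1*, the paralog of *Dll4*, had 8.62, 8.18 and 8.72 on the arrays labelled Δ*socs3*, against 9.54, 9.90 and 9.41 on the arrays labelled WT, a difference of -1.11 (SE 0.20, limma adjusted p = 0.0481). It lay below 10.22 on all arrays, and its call was lost with an intensity trend and a robust fit. *Jag1* and *Jag2*, further Notch ligands picked after their values were seen, differed by -0.96 and -1.34 and did not pass (adjusted p = 0.167 and 0.0781). The chemokines *Ccl20*, *Ccl22* and *Xcl1* were higher, by 2.04, 1.72 and 0.69 (adjusted p = 0.0262, 0.0343 and 0.0494). These 3 are ligands of CCR6, CCR4 and XCR1 and are known from medullary TECs. None of them exceeded 10.22 on any array.

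Receptors of the ligands in the set were not called in either direction, 0 of 7 measured (limma), and before adjustment p was under 0.05 for 1 higher and 2 lower receptors (5.86% and 17.9% of all genes). On omitting replicate 2 of the Δ*socs3* label, 2 receptors were called higher, *Cxcr4* and *Kit*, and without replicate 2 of both labels *Notch1* was called lower (-0.56, adjusted p = 0.0214). Of all 30176 genes, 1554 were called higher in the first of these settings and 1579 lower in the second. *Notch1* had 9.64, 8.88 and 9.62 on the arrays labelled Δ*socs3*, against 10.18, 10.88 and 10.20 on the arrays labelled WT, a difference of -1.04 (adjusted p = 0.0928). *Notch3* differed by -0.61. *Cxcr4*, *Kit* and *Ccr9* had positive differences of 0.75, 0.41 and 0.25, *Il7r* stood at 0.03 and the scavenging receptor *Ackr4* at -0.20, with adjusted p from 0.134 to 0.959. Of the 7 receptors only *Kit* had a mean above 10.22, so the size of the other differences is less certain. These receptors are mostly known from thymocytes, and the cells were sorted as CD45-negative.

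Medullary TEC genes went the other way, with 2 of 10 measured called higher, none lower and a median of 0.52. The shares over the 30176 genes tested were 0.517% higher and 1.18% lower. Quantile normalization gave 7 medullary genes called higher, beside 1146 higher and 1052 lower among the 30176. Dropping replicate 2 of the Δ*socs3* label gave 6 medullary genes higher and 1 lower, beside 1554 higher and 1827 lower among the 30176. *Aire*, the regulator of tissue antigens, had 13.52, 12.72 and 13.32 on the arrays labelled Δ*socs3*, against 11.74, 10.94 and 11.60 on the arrays labelled WT, a difference of 1.76 (SE 0.28, limma adjusted p = 0.0386). *Cd80*, a costimulatory ligand of mature medullary TECs, was higher by 1.30 (SE 0.22, adjusted p = 0.0429). Both keratin genes of basal medullary cells had negative differences, and the nearer to the threshold was *Krt14* at -0.76 (adjusted p = 0.0852). *Aire* was lowest on the array labelled WT replicate 2, where the 10 genes were highest, but its highest value was not on the array labelled Δ*socs3* replicate 2, where they were lowest. The calls named in the lists of cortical genes, regulators, ligands and medullary genes were all kept without the array labelled Δ*socs3* replicate 2, and lost on leaving out any other single array. The arrays do not count cells, and the share of cortical cells in each sort was not read here.

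**Figure D4:**
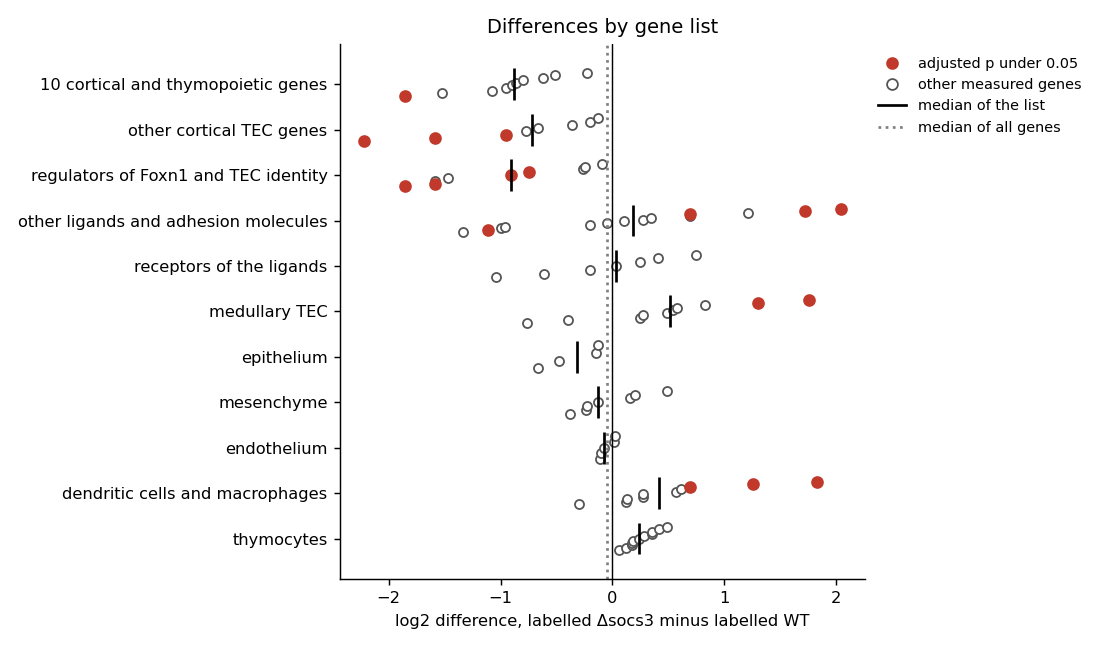
Log2 differences (horizontal axis, Δ*socs3*-labelled minus WT-labelled arrays) of the 10 genes and of the measured genes of each list, with filled points for genes called by limma, a vertical line at each median and a dotted line at the median of all genes, -0.05. The medians of the 10 genes (-0.88), the other cortical genes (-0.72) and the regulators (-0.91) lie left of 0 and that of the medullary genes (0.52) right of it.

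Markers of other cells in the sort were read beside these values. *Epcam* had 15.28 to 15.50 on the arrays labelled Δ*socs3*, against 15.54 to 15.58 on the arrays labelled WT, a difference of -0.15 (limma adjusted p = 0.512, and 0.09 under quantile normalization), and *Ptprc*, which encodes CD45, had 7.62 to 9.12, against 8.06 to 8.60, below 10.22 throughout. Of the epithelial markers, 0 of 4 were called in the main comparison. All 4 had negative differences there, with a median of -0.31, beside -0.34 over all genes above 10.22. *Krt18* was called lower without replicate 2 of both labels (-0.46, adjusted p = 0.0436) and with array weights (-0.53, adjusted p = 0.0294). In these settings 1579 and 2730 of all 30176 genes were called lower. Mesenchymal cells and endothelium also make *Cxcl12*, *Kitl* and *Il7*. Of their markers 0 of 7 and 0 of 5 were called, with medians of -0.13 and -0.08. On omitting replicate 2 of the Δ*socs3* label the mesenchymal median was 0.09, and *Pdgfrb*, a receptor of mesenchymal cells, was called higher there (0.66, adjusted p = 0.0179) and under quantile normalization (0.57, adjusted p = 0.0464). Mean signals of the mesenchymal list were 7.80 to 8.24 on the arrays labelled Δ*socs3*, against 7.92 to 8.25 on the arrays labelled WT, and those of the endothelial list 6.22 to 6.36, against 6.33 to 6.38. Only *Dcn* among these 12 markers had a mean above 10.22. Of 11 thymocyte markers 0 were called, all with positive differences and a median of 0.24, and 1 had p under 0.05 before adjustment. Without the array labelled Δ*socs3* replicate 2, 2 thymocyte markers were called higher, beside 1554 of all 30176 genes. On leaving out another array, 4 thymocyte markers turned negative. Of 10 dendritic cell and macrophage markers, 3 were called higher and none lower, *Lyz2* by 1.83, *Mrc1* by 1.26 and *C1qb* by 0.69 (adjusted p = 0.0349, 0.0481 and 0.0494). Over all genes, 0.517% were called higher and 1.18% lower. Of the 10, only *Lyz2* had a mean above 10.22, and these 3 calls too were lost on leaving out any single array other than that labelled Δ*socs3* replicate 2. *Adgre1*, which encodes the macrophage antigen F4/80, differed by 0.61 (adjusted p = 0.0618), and *Itgax*, which encodes CD11c and was picked after its values were seen, was at 5.82 to 6.28, against 5.84 to 5.92. Without the array labelled Δ*socs3* replicate 2, 6 were called higher. The mean signal of that list was 7.53 to 7.72 on the arrays labelled Δ*socs3*, against 7.01 to 7.15 on the arrays labelled WT. Its part in the lower *Il7* was not tested.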

How the data were processed

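Per the study's methods, signals were scaled with MAS5, log2 transformed and normalized in GeneSpring. The deposited table holds log2 values of 72688 probe sets by array (2.34 to 19.93), whose medians differ and which are not centred per gene, so which steps it includes is not known. The build is not given in the sources used here. Each array was shifted to 1 median over genes. Of 65956 transcript clusters, 30638 had 1 symbol in the platform annotation, 2176 several and 33142 none. A gene with several probe sets was represented by that of the highest mean, for 30176 genes in all.

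The linear model of each gene came from limma 3.58.1 under R 4.3.3 (functions lmFit and eBayes, 3.19 prior and 4 residual degrees of freedom, no covariate), and p-values were adjusted over all genes by Benjamini-Hochberg, with a threshold of 0.05 and no minimum fold. Intervals are 95% intervals from that fit. No filter on dim genes was applied, and the 95th percentile of 5222 negative control probe sets (10.22) serves as a guide to background. The number of arrays limits the precision.

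Single values are given for the 10 genes, *Socs3*, *Epcam*, *Ptprc*, the receptors of the ligands, called members of each list and up to 4 with the smallest p, and the 3 profiles most like *Il7* and *Foxn1*. Further genes are marked as picked after their values were seen. The genes and lists were chosen with earlier results of these data known. *Ccl21a*, *Ackr3*, *Rag1*, *Lck*, *Pdgfra* and *Egfl7* were not analysed here, and some further items are not reported here. Alternatives were no shift, quantile normalization, a filter on dim genes, averaged or single probe sets, array weights, a robust fit with an intensity trend, an unadjusted p, the methods' t-test on the same values, the replicate number as a block and leaving out arrays. Leaving out replicate 2 of both labels was chosen after seeing the data.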

Additional observations from a re-analysis of the deposited data

How the results depend on the processing

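All 10 differences stayed negative under every alternative run, except *Ccl25* at 0.12 under quantile normalization. Of the 10 genes, 1 was called lower in the main comparison, 3 with array weights, 3 without replicate 2 of both labels, 3 by the methods' t-test unadjusted and 0 adjusted, 7 by limma at an unadjusted p, 0 with the replicate number as a block (replicate block) and 0 to 1 on leaving out each array. Their median of -0.88 was -0.34 without replicate 2 of both labels. In the lists of cortical, medullary, regulator, ligand and receptor genes together, 7 were called lower, against 14 with array weights, 13 without replicate 2 of both labels, 17 by the methods' t-test unadjusted and 0 adjusted, 17 at an unadjusted p, 0 with the replicate block and 0 to 12 on leaving out each array. Called higher were 5, against 14 with quantile normalization, 2 with the filter on dim genes, 15 with array weights, 14 without replicate 2 of both labels, 0 by the adjusted t-test, 10 at an unadjusted p, 1 with the replicate block and 0 to 15 on leaving out each array. Over all genes 156 were called higher and 356 lower, 367 and 355 without the shift, 1146 and 1052 with quantile normalization, 1813 and 2730 with array weights, 25 and 4 with the replicate block, 1768 and 5393 by limma at an unadjusted p, 1545 and 4271 by the unadjusted t-test and 1554 and 1827 on omitting replicate 2 of the Δ*socs3* label. The share of higher calls was 30.5%, 50.8% without the shift and 52.1% with quantile normalization, while the median over all genes was -0.05, 0.08 and -0.02. *Epcam* turned to 0.09, *Krt8* to 0.05 and *Dcn* to 0.07 under quantile normalization, and *Krt8* to 0.00 and *Wnt5b* to 0.05 without the shift. On leaving out each array *Il7r* lay between -0.23 and 0.28 and *Ptprc* between -0.24 and 0.50. Arrays with the same replicate number did not deviate together (correlations of 0.0731, -0.131 and -0.18), so the numbers were not taken as pairs. The cause of these shifts was not tested. Signals below 10.22 (*Dll4*, *Ccl25*, *Cxcl12*, *Kitl*, and *Il7* on the arrays labelled Δ*socs3*) make the size of a difference less certain.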
